A study of Homo sapiens with 6 samples.

Results

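Hedgehog signals are read by a small set of proteins, and 9 genes of this set were followed here in RNA-seq libraries: the receptors PTCH1 and SMO, the ligand-binding protein HHIP, the coreceptors GAS1 and BOC, the GLI inhibitor SUFU and the transcription factors GLI1, GLI2 and GLI3. They were taken by symbol, and all 9 were found among the 27672 genes of the table. The libraries came from H9 cells, an established human embryonic stem cell (hESC) line, with 3 labelled biological replicates of undifferentiated hESCs (day 0) and 3 of NMP-like (NMP-L) cells made from them (day 3). NMP-L cells are an in vitro counterpart of the neuromesodermal progenitors (NMPs) that supply the spinal cord and the paraxial mesoderm. According to the labels, the hESCs were kept without feeder cells on fibronectin in DEF medium, to which bFGF (30 ng/ml) and the BMP antagonist Noggin (10 ng/ml) were added, and received no further treatment. The NMP-L cells spent 3 days in N2/B27 medium containing the Wnt pathway activator CHIR99021 at 3 µM together with bFGF at 20 ng/ml. The study's Methods name another medium and coating for the undifferentiated cells and add inhibitors of BMP and TGFβ signalling from day 2, which the labels do not mention. No Hedgehog ligand, agonist or inhibitor is named in the labels of either condition. All libraries derive from 1 cell line.

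In the absence of ligand, PTCH1 keeps SMO inactive, SUFU holds the GLI proteins back, and GLI3 and, less so, GLI2 are cut into repressor forms. Binding of SHH, IHH or DHH to PTCH1 and a coreceptor releases SMO, which moves into the primary cilium and lets full-length GLI proteins enter the nucleus. PTCH1, HHIP and GLI1 are themselves widely used as transcriptional targets of the pathway, and in the neural tube SHH from the notochord and floor plate patterns the ventral progenitors. Transcript levels do not show whether a GLI protein is in its activator or its repressor form.

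GLI proteins recognise the sequence GACCACCCA, so the promoters of the members were searched for it on both strands. Windows from 250 bases before to 50 bases after an annotated start were available for 7 of the 9 members (13 windows, RefSeq, GRCh38.p14), with no window for GLI1 and GLI3. An exact match was found in 1 window, which belongs to PTCH1 (chr9:95509217-95509516, minus strand). It is shown first, with the match in capitals, and reads as the reverse complement of the motif at bases 79 to 87 of the window. The windows of GAS1 (chr9:86947457-86947756, minus strand) and HHIP (chr4:144645906-144646205, plus strand), the members with the largest rise and the largest fall in NMP-L cells, are given for comparison and hold no match.
PTCH1: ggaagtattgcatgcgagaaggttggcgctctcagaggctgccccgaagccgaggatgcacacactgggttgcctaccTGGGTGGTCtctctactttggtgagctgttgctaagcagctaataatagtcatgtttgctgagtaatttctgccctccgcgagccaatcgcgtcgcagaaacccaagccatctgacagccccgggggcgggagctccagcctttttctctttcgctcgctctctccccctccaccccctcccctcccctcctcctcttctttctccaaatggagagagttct
GAS1: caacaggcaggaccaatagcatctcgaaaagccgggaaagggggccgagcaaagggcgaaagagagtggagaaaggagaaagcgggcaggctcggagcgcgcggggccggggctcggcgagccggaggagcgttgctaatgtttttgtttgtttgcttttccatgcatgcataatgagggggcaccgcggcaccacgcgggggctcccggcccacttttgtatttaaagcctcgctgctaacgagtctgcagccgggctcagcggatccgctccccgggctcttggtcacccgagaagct
HHIP: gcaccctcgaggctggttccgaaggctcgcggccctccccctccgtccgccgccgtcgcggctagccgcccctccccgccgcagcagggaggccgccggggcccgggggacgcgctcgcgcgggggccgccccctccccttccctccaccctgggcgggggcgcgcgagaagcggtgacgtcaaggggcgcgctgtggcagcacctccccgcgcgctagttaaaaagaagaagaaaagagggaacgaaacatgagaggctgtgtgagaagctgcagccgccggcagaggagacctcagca
Of all 35116 windows of this length, 83 (0.236%) held an exact match. With 1 mismatch allowed, 2366 windows (6.74%) had a match, and among the members 3 of the 5 PTCH1 windows did. A further PTCH1 site, GAGCACCCA, lies in 2 overlapping windows and was counted in each. A match is a stretch of letters and does not show that a GLI protein was bound there.

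Library totals lay between 19454554 and 23036454 counts, and the 10 most counted genes held 6.12% to 6.75% of them. Replicates differed by more than sampling noise (chi-square per degree of freedom from 6.52 to 17.5), and log2 CPM (counts scaled to library size) correlated across genes at 0.988 to 0.992 within conditions and at no more than 0.930 between them. The labels were checked on marker genes. POU5F1 and NANOG fell in NMP-L cells (log2 fold changes of −0.92 and −2.59), T, CDX1, CDX2 and NKX1-2 rose, and SOX2 did not pass the test (0.06, edgeR adjusted p = 0.53). T, CDX1 and CDX2 had no more than 4 counts in any hESC library. Like SOX1 below, they entered the test through their NMP-L libraries alone. Of markers of other cell types, SOX17 was at no more than 1 count in any library and PAX6 at no more than 1 count in any NMP-L library. The 7 notochord and floor plate markers summed to between 25.2 and 27.7 CPM in hESC libraries and between 47.7 and 83.2 CPM in NMP-L libraries, and 3 of 3 tested members (FOXA2, CHRD and FOXJ1) were called higher. Of the 4 neural progenitor markers, SOX1 rose (7, 13 and 4 counts in hESCs, 284, 197 and 274 in NMP-L cells), IRX3 did not pass the test and NEUROG2 was at no more than 1 count, while the list summed to 2.08 to 3.14 CPM for hESCs and 10.7 to 14.2 CPM for NMP-L cells. Of the 4 paraxial mesoderm markers, TBX6 and TCF15 fell, and the list summed to 9.18 to 12.3 CPM and 3.34 to 4.35 CPM. MSGN1, which was not tested, went the other way, from 0 counts in every hESC library to 7, 4 and 2 in NMP-L replicates 1 to 3. MEOX1 was at no more than 1 count in any library. The endoderm list (3.70 to 3.95 CPM and 5.96 to 7.40 CPM) consisted almost wholly of HHEX, with FOXA1, GATA6 and SOX17 at no more than 7 counts in any library.

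To determine how the Hedgehog reception machinery differed between the conditions, the 9 genes were read from an edgeR quasi-likelihood fit across all 15517 genes with enough counts. GAS1 rose 4.56-fold and SUFU 1.27-fold in NMP-L cells, whereas HHIP, PTCH1, GLI1, BOC, GLI3 and SMO fell, by 3.60-fold for HHIP to 1.25-fold for SMO, and GLI2 did not pass the test. The change therefore passed the threshold (adjusted p under 0.05) in 8 of 9 members, 2 higher and 6 lower. Among all genes tested, 55.8% passed, 29.1% higher and 26.7% lower, so that a change as such was common in this comparison. The balance of directions depended on scaling: 4 members were called higher and 1 lower relative to GAPDH, and 1 higher and 7 lower relative to HPRT1, while the share of higher calls over all genes moved from 52.1% to 87.5% and to 25.3%. At a fold of at least 2, 1 member was called higher and 1 lower, against 9.38% and 9.18% of all genes. The median log2 fold change was −0.47 over the members and 0.03 over all genes tested. The libraries of the conditions did not overlap in 8 members, against 61.6% of all genes. The exact permutation test of 3 libraries against 3 gave p = 0.1 for each of these 8 members, the smallest p this design allows, and p = 0.2 for GLI2. Fewer cells expressing a gene and less RNA of that gene per cell cannot be told apart in these bulk libraries.

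**Figure D1:**
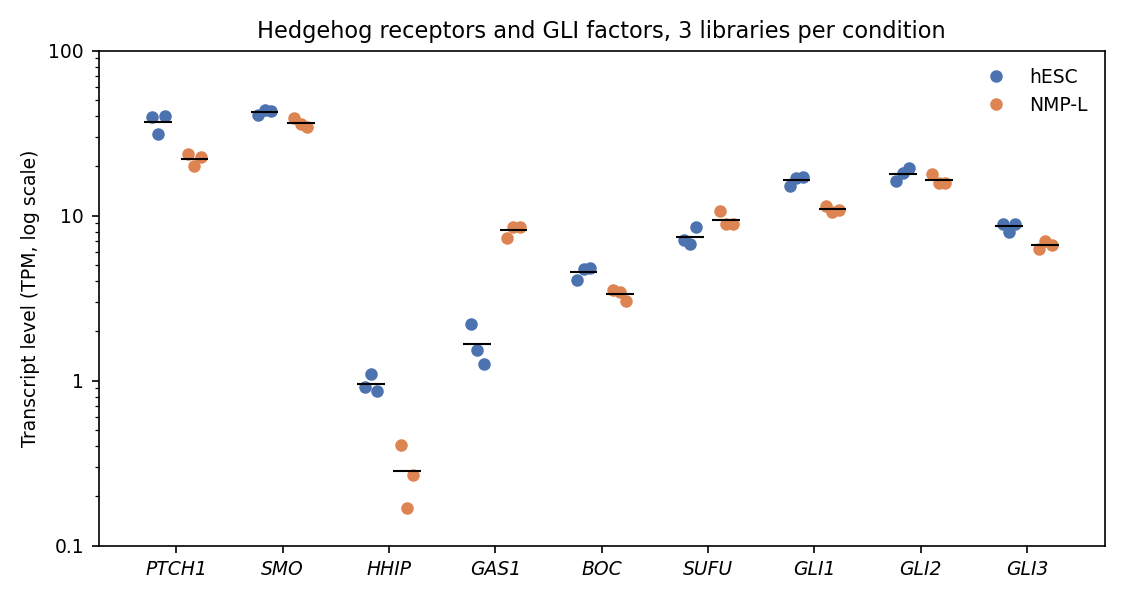
Transcript levels (TPM, log axis) of the 9 genes in each of the 3 hESC and 3 NMP-L libraries, with a point per library and a bar at the mean. GAS1 lies higher in NMP-L libraries by the widest margin, at 7.30 to 8.58 TPM against 1.26 to 2.22 TPM, and GLI2 is the only gene whose libraries overlap.

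Levels were compared between genes as TPM, in which counts are scaled by transcript length and to the same sum in every library. In hESCs SMO was highest (42.6 ± 1.79 TPM, SD, n = 3), followed by PTCH1 (36.98 ± 5.10), GLI2 (18.0 ± 1.58), GLI1 (16.4 ± 1.07), GLI3 (8.62 ± 0.560), SUFU (7.46 ± 0.977), BOC (4.55 ± 0.408), GAS1 (1.67 ± 0.494) and HHIP (0.960 ± 0.123). The libraries of neighbours in this order overlapped for GLI2 and GLI1 and for GLI3 and SUFU, and not for the other neighbours. In NMP-L cells SMO (36.5 ± 2.33 TPM), PTCH1 (22.1 ± 1.88), GLI2 (16.5 ± 1.31) and GLI1 (10.9 ± 0.458) held the first 4 places and HHIP the last (0.283 ± 0.121). SUFU (9.48 ± 1.01) and GAS1 (8.14 ± 0.728) now stood above GLI3 (6.63 ± 0.391) and BOC (3.34 ± 0.257), and among neighbours only GLI1 and SUFU overlapped. GAS1 moved from percentile 15.4 of all tested genes by TPM to percentile 37.1, PTCH1 from 74.4 to 60.2 and HHIP from 9.8 to 2.1.

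Among the receptors, PTCH1 (chromosome 9, 98205262 to 98279339, minus strand, GRCh37) binds the ligands and restrains SMO. It was at 39.5, 31.1 and 40.4 TPM in hESC replicates 1 to 3 and at 23.6, 20.0 and 22.8 TPM in NMP-L replicates 1 to 3. Every NMP-L library was below every hESC library, although hESC replicate 2 lay well under the other hESC libraries. The log2 fold change was −0.83 (SE 0.10, edgeR adjusted p = 4e-05), with a 1.78-fold lower level in NMP-L cells. Of the 5 promoter windows of PTCH1, 1 carries the exact GLI motif printed above, and a part of this motif in the difference was not tested.

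SMO (chromosome 7, 128828474 to 128853386, plus strand), the membrane protein that carries the signal inward, was at 40.6, 43.96 and 43.3 TPM in hESCs and at 39.0, 36.1 and 34.4 TPM in NMP-L cells. The libraries did not overlap, but NMP-L replicate 1 and hESC replicate 1 were close. Its log2 fold change of −0.32 (SE 0.09, edgeR adjusted p = 0.013) was the smallest among the members that fell. When libraries were corrected for the GC content and length of transcripts, it was −0.06 (adjusted p = 0.43), and without NMP-L replicate 3 it was −0.25 (adjusted p = 0.053), so the call was lost in both cases.

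The log2 ratio of PTCH1 to SMO TPM, which is unaffected by scaling between libraries, came to −0.04, −0.50 and −0.10 in hESC replicates 1 to 3 and to −0.72, −0.85 and −0.59 in NMP-L replicates 1 to 3. PTCH1 was thus near SMO in 2 hESC libraries and below it in the third and in all NMP-L libraries. The means differed by −0.51, with no overlap between conditions (exact permutation p = 0.1, adjusted p = 0.117 over 7 ratios and shares).

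HHIP (chromosome 4, 145567308 to 145666423, plus strand) is a membrane protein that binds Hedgehog ligands and withholds them from PTCH1. It was read at 29, 38 and 29 counts in hESC replicates 1 to 3 and at 15, 6 and 10 counts in NMP-L replicates 1 to 3, which correspond to 0.91, 1.10 and 0.87 TPM and to 0.41, 0.17 and 0.27 TPM. All NMP-L libraries lay below all hESC libraries, but these are the lowest counts among the members. The log2 fold change was −1.85 (SE 0.33, edgeR adjusted p = 0.00053), 3.60-fold lower in NMP-L cells. HHIP entered the test through its hESC libraries and was not tested where at least 10 counts were required in every library.

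The coreceptors present ligand to PTCH1. GAS1 (chromosome 9, 89559277 to 89562421, minus strand), which is anchored to the membrane by a lipid, was at 2.22, 1.54 and 1.26 TPM in hESCs and at 7.30, 8.58 and 8.54 TPM in NMP-L cells. In counts this was 56, 42 and 33 against 213, 236 and 252. The lowest NMP-L library was thus far above the highest hESC library. The log2 fold change was 2.19 (SE 0.18, edgeR adjusted p = 1.7e-06), the largest among the members in either direction.

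BOC (chromosome 3, 112929850 to 113006306, plus strand), a transmembrane coreceptor of the immunoglobulin superfamily, went the other way. It was at 4.08, 4.76 and 4.81 TPM in hESCs and at 3.53, 3.45 and 3.05 TPM in NMP-L cells, without overlap. The log2 fold change was −0.57 (SE 0.15, edgeR adjusted p = 0.006). CDON, the coreceptor most like BOC in structure and not one of the 9 genes, was at 11.5, 10.3 and 11.5 TPM in hESCs and at 6.07, 7.29 and 6.97 TPM in NMP-L cells, a log2 fold change of −0.81 (SE 0.10, edgeR adjusted p = 3.7e-05).

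Because GAS1 rose while BOC and CDON fell, their shares of the summed coreceptor TPM were compared within each library. GAS1 made up 12.5%, 9.28% and 7.19% in hESCs and rather more, 43.2%, 44.4% and 46.0%, in NMP-L cells. By TPM it was the least abundant of the coreceptor transcripts in every hESC library and the most abundant in every NMP-L library. CDON held 64.0% ± 1.75 in hESCs and 37.1% ± 1.00 in NMP-L cells, and BOC 26.4% ± 3.03 and 18.4% ± 2.28 (SD, n = 3), and for each coreceptor the libraries of the conditions did not overlap (exact permutation p = 0.1, adjusted p = 0.117). The summed TPM of GAS1, BOC and CDON was 17.3 ± 0.631 in hESCs and 18.3 ± 1.24 in NMP-L cells and overlapped (exact permutation p = 0.3). When the shares were taken from counts, which are not scaled by length, the differences were 21.5 percentage points for GAS1 in place of 34.9, −20.1 for CDON in place of −26.9 and −1.42 for BOC in place of −7.96.

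**Figure D2:**
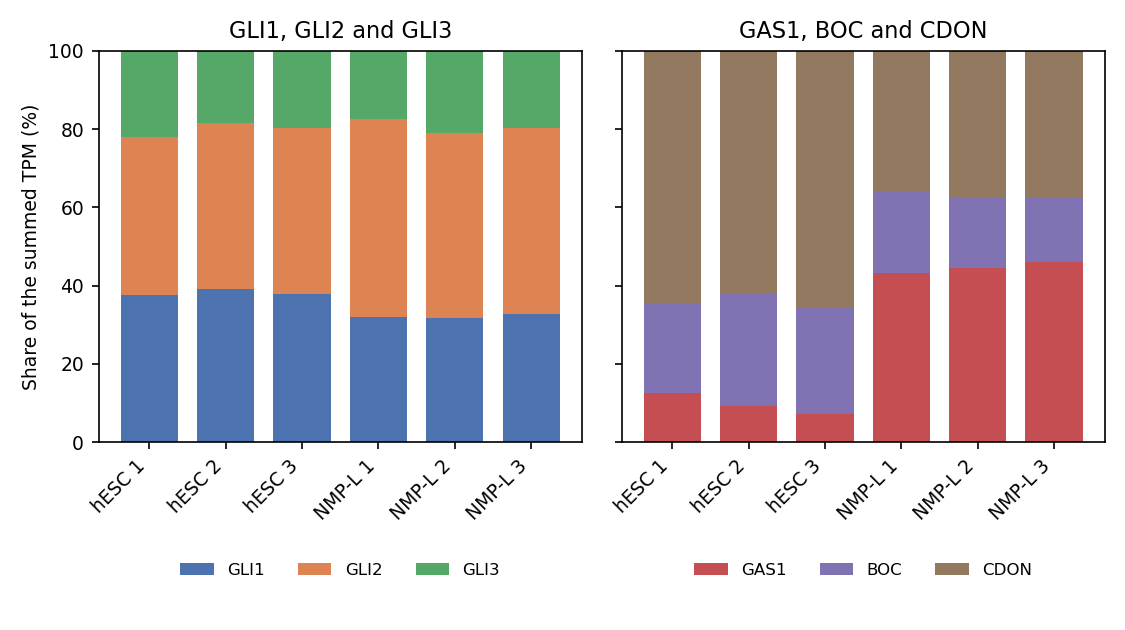
Shares of the summed TPM (percent, stacked to 100) in each library for GLI1, GLI2 and GLI3 (left) and for GAS1, BOC and CDON (right). The GAS1 share is 7.19% to 12.5% for hESCs and 43.2% to 46.0% for NMP-L cells, whereas the GLI3 share overlaps between the conditions.

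SUFU (chromosome 10, 104263729 to 104393292, plus strand) binds GLI proteins and restrains them in the cytoplasm and the nucleus. It was at 7.08, 6.73 and 8.57 TPM in hESCs and at 10.6, 8.93 and 8.86 TPM in NMP-L cells. The conditions did not overlap, but hESC replicate 3 was close to NMP-L replicates 2 and 3. For SUFU the log2 fold change was 0.34 (SE 0.13, edgeR adjusted p = 0.041). This call was lost with RLE size factors (adjusted p = 0.052), with DESeq2 (adjusted p = 0.053), with limma on log2(TPM + 1) (adjusted p = 0.062), with HPRT1 scaling (0.05, adjusted p = 0.88) and when hESC replicate 1 or 2 or NMP-L replicate 1 or 2 was left out (adjusted p of 0.059 to 0.16). After the correction for GC content and length it was 0.48 (adjusted p = 0.0015).

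Of the transcription factors, GLI1 (chromosome 12, 57853568 to 57866051, plus strand) acts as an activator and is itself induced by the pathway. It was at 15.2, 16.9 and 17.2 TPM in hESCs and at 11.4, 10.5 and 10.9 TPM in NMP-L cells, and all NMP-L libraries were below all hESC libraries. Its log2 fold change was −0.67 (SE 0.11, edgeR adjusted p = 0.00021), a 1.60-fold lower level. After the correction for GC content and length it was −0.47 (adjusted p = 0.00012).

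GLI2 (chromosome 2, 121493199 to 121750229, plus strand) is the main activator in the response to ligand. It was at 16.3, 18.3 and 19.4 TPM in hESCs and at 18.0, 15.7 and 15.8 TPM in NMP-L cells. NMP-L replicate 1 lay within the hESC range and the other NMP-L libraries just below it. Its log2 fold change was −0.22 (SE 0.10, edgeR adjusted p = 0.094) and did not pass the test. It passed without hESC replicate 1 (−0.33, adjusted p = 0.013) and without NMP-L replicate 1 (−0.30, adjusted p = 0.044), and it was 0.03 (adjusted p = 0.66) after the correction for GC content and length, so no direction is given for GLI2.

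GLI3 (chromosome 7, 42000547 to 42303699, minus strand) is the main source of GLI repressor. It was at 8.93, 7.97 and 8.95 TPM in hESCs and at 6.26, 7.04 and 6.60 TPM in NMP-L cells, without overlap. Its log2 fold change was −0.47 (SE 0.10, edgeR adjusted p = 0.0016). The correction for GC content and length left it at −0.45 (adjusted p = 0.00027).

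Within the family, GLI2 held 40.3%, 42.4% and 42.6% of the summed GLI TPM in hESCs and 50.5%, 47.3% and 47.4% in NMP-L cells. GLI1 held 37.6%, 39.1% and 37.8% in hESCs and 32.0%, 31.6% and 32.7% in NMP-L cells. In each library GLI2 had the largest share, and the gap to GLI1 was wider in every NMP-L library than in any hESC library. The differences were 6.63 percentage points for GLI2 and −6.07 for GLI1, without overlap (exact permutation p = 0.1, adjusted p = 0.117 for each). GLI3 held 20.1% ± 1.84 in hESCs and 19.51% ± 1.83 in NMP-L cells (SD, n = 3), which overlapped (exact permutation p = 0.8). The summed TPM of the family was 43.1 ± 2.58 in hESCs and 34.1 ± 1.41 in NMP-L cells, without overlap (exact permutation p = 0.1).

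The direction of small changes depended on what the counts were scaled to. GAPDH, a common reference gene, itself fell in NMP-L cells (log2 fold change −0.55, edgeR adjusted p = 0.00014). Scaling to it raised the median log2 fold change of all genes by 0.56, and scaling to HPRT1 lowered it by 0.30 (shift −0.30). Relative to GAPDH, SMO (0.23, edgeR adjusted p = 0.041) and GLI2 (0.34, edgeR adjusted p = 0.012) turned to positive values and were called higher. GLI3 (0.09) also turned positive, and the calls of GLI3, PTCH1, GLI1 and BOC were lost. GAS1 (2.74) and HHIP (−1.30) kept direction and call. Such scaling changes all genes of a library by the same factor, so changes relative to the median of all genes stay nearly the same by construction. Taken in this way, PTCH1 (−0.86), SMO (−0.35), GLI2 (−0.25) and GLI3 (−0.50) were the same to 2 decimals with TMM and with GAPDH scaling. BOC (−0.60 and −0.61) and HHIP (−1.87 and −1.89) differed slightly.

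**Figure D3:**
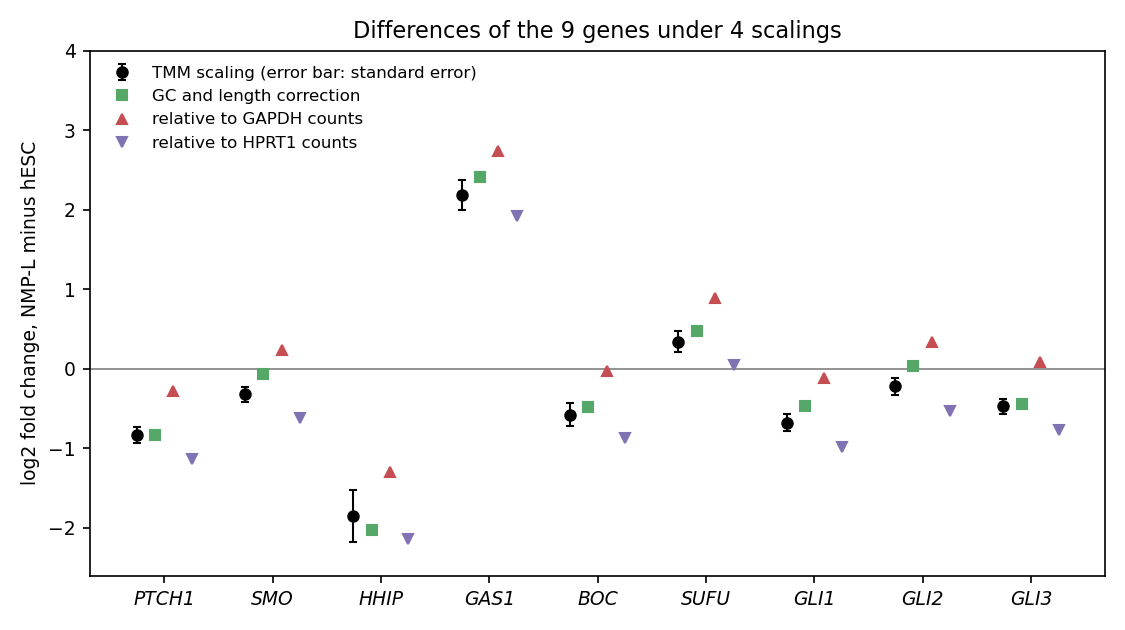
Log2 fold changes of the 9 genes (NMP-L minus hESC) with their standard errors, together with the values after scaling to GAPDH or HPRT1 and after the GC and length correction. GAS1 and HHIP keep their direction in each of these settings, whereas SMO, GLI2 and GLI3 turn positive with GAPDH.

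Several members share exon sequence positions with genes on the opposite strand: ARHGAP9 for GLI1, HHIP-AS1 for HHIP, CFAP44 for BOC, and, for PTCH1, SMO and BOC, unnamed long non-coding RNAs that were not analysed here. Whether reads were counted by strand is not given in the sources used here, and without strand the reads of such partners cannot be told apart. ARHGAP9 was at 38, 63 and 40 counts for hESCs and 47, 35 and 55 for NMP-L cells, and HHIP-AS1 at 7, 23 and 10 counts and at 11, 6 and 8 counts. CFAP44 was at 3, 5 and 5 counts for hESCs and at 32, 20 and 47 for NMP-L cells, opposite in direction to BOC. None of the members had a fractional expected count, which marks reads divided between genes.

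To place these 9 genes, the other components of the pathway were read from lists grouped by role. The ligand SHH, which marks the notochord and floor plate, was at 0 counts in all hESC libraries and reached 12, 8 and 9 counts in NMP-L replicates 1 to 3. It had too few counts to be tested. Its mean NMP-L level (0.432 CPM, lowest library 0.376 CPM) was 2.75-fold a floor of 3 counts per hESC library (0.157 CPM). IHH was at 1 count in hESC replicate 2 and at 0 in all other libraries, and DHH was at 0 in all libraries. Of the 9 genes for ligands and their release, 5 were tested, 3 were called higher and 1 lower, against 29.1% and 26.7% of all genes, with a median log2 fold change of 1.16. This median was 0.35 without NMP-L replicate 1 and at most 0.52 without hESC replicate 1 or NMP-L replicate 2 or 3, where a further gene was tested. In these fits 3 were called higher and 2 lower. With no filter beyond 1 count in total, 8 genes of the list were tested, with a median of 0.45. Of these, 4 were called higher and 2 lower, against 4740 and 4295 of 20932 genes. HHAT, the enzyme that attaches palmitate to Hedgehog ligands, rose from 1, 4 and 5 counts to 53, 73 and 73 counts (log2 fold change 4.04, SE 0.38, edgeR adjusted p = 4.1e-06). HHAT entered the test through its NMP-L libraries alone and was not tested where at least 10 counts were required in every library. DISP1, which releases lipid-modified ligand from producing cells, rose from 80, 68 and 97 counts to 226, 189 and 227 counts (1.16, adjusted p = 6e-05). Of the SCUBE proteins, which help to carry the released ligand, SCUBE3 rose (2.09, adjusted p = 4.2e-05), SCUBE1 fell (−1.55, adjusted p = 0.00026) and SCUBE2 was at −0.26 (adjusted p = 0.29).

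Of 8 other surface components tested, 5 were called lower and 1 higher, against 26.7% and 29.1% of all genes, with a median log2 fold change of −0.43. Relative to GAPDH 2 were called lower and 4 higher, where 87.5% of the calls over all genes were higher. GPC3, a glypican that binds Hedgehog ligands, was at 85.3, 80.6 and 86.5 TPM in hESCs and at 37.4, 38.6 and 35.3 TPM in NMP-L cells (log2 fold change −1.27, SE 0.09, edgeR adjusted p = 3.5e-07). LRP2, an endocytic receptor that takes part in SHH reception in the forebrain, fell from 85, 69 and 83 counts to 48, 43 and 44 counts (−1.04, adjusted p = 0.00064).

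Among 22 regulators of GLI proteins, 21 were tested, 6 were called higher and 2 lower, with a median of 0.11, and relative to HPRT1 1 was called higher and 4 lower. With TMM scaling the 38.1% called is below the 55.8% of all genes, but this depended on the setting. With RLE size factors 7 of 21 were called (8635 of 15517 genes), and with library size only 12 (8909 genes). The GC and length correction gave 13 (9801 genes), GAPDH scaling 18 (11456 genes) and HPRT1 scaling 5 (7087 genes). EFCAB7, a cilium protein that anchors the positive regulators EVC and EVC2, rose from 52, 49 and 55 counts to 154, 112 and 195 counts (log2 fold change 1.32, SE 0.19, edgeR adjusted p = 9.7e-05). Of the casein kinases that phosphorylate pathway proteins, CSNK1E fell (−0.74, SE 0.08, edgeR adjusted p = 1.3e-05) and CSNK1A1 was at 0.12 (adjusted p = 0.21).

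Of 24 genes needed to build or operate the primary cilium, 16 were called higher and 0 lower, with a median of 0.46. This is 66.7% called, compared with 55.8% of all genes in either direction and 29.1% higher. DYNC2H1, the heavy chain of the motor for retrograde transport within the cilium, rose from 664, 429 and 509 counts to 1365, 1474 and 1752 counts (log2 fold change 1.28, SE 0.15, edgeR adjusted p = 2.4e-05). CEP290, a component of the transition zone at the cilium's base, rose from 325, 241 and 235 counts to 651, 611 and 984 counts (1.25, SE 0.17, edgeR adjusted p = 8.1e-05). With HPRT1 scaling, 4 genes of this list were called higher and 1 lower. Over all 15517 genes, 1793 were then called higher and 5294 lower, so the share called was smaller in the list. After the correction for GC content and length the median was 0.31, with 16 called higher and 1 lower. This correction gave 5198 higher and 4603 lower calls over all genes. Leaving out 1 library gave 13 to 17 calls, of which 1 was lower without NMP-L replicate 1. Over all genes, leaving out 1 library gave 7255 to 8890 calls.

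Genes that respond to GLI factors in the spinal cord or in other tissues did not move in 1 direction. Of 19 listed genes, 10 were tested, 3 were called higher and 4 lower, against 29.1% and 26.7% of all genes. Their median was −0.52, and it was 0.01 without hESC replicate 1, 0.03 without NMP-L replicate 1 and −0.06 and −0.02 without hESC replicates 2 and 3. In each of these fits with a library left out, 11 genes of the list were tested in place of 10. Without NMP-L replicates 2 and 3, where 10 were tested, the median was −0.50 and −0.31. FOXA2, a transcription factor of the node, floor plate and endoderm, rose from 0, 5 and 2 counts to 473, 264 and 535 counts (log2 fold change 7.19, SE 0.42, edgeR adjusted p = 9.6e-08). FOXA2, too, entered the test through its NMP-L libraries alone, and its log2 fold change was 6.62 without hESC replicate 1 and 8.32 without hESC replicate 2. The notochord marker NOTO, which was not tested, had 3, 2 and 3 counts in hESC replicates 1 to 3 against 36, 8 and 43 in the NMP-L replicates, with NMP-L replicate 2 lowest for both genes, and the part of such cells in the SHH and FOXA2 values was not tested. BCL2, an inhibitor of cell death, also rose (1.43, adjusted p = 0.00015). MYCN, a proto-oncogene that responds to SHH in cerebellar progenitors, fell from 82.5, 77.2 and 83.8 TPM to 25.0, 23.3 and 26.3 TPM (−1.79, SE 0.09, edgeR adjusted p = 1.9e-08). HSD11B2, which inactivates cortisol, the Notch ligand JAG2 and the small GTPase RAB34, which acts in cilium formation, also fell (−1.24, −1.08 and −1.03). The ventral progenitor genes NKX2-2 and NKX6-1 reached at most 3 counts in any library, and OLIG2 had 6 to 11 counts, so that no change of them was detectable at this depth. NKX6-2 had 9, 9 and 18 counts in hESCs and 5, 8 and 6 in NMP-L cells, and DBX2 had 0, 1 and 0 against 5, 3 and 4. For NKX6-2 and DBX2 the conditions did not overlap, in opposite directions, but the counts were too few to be tested.

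**Figure D4:**
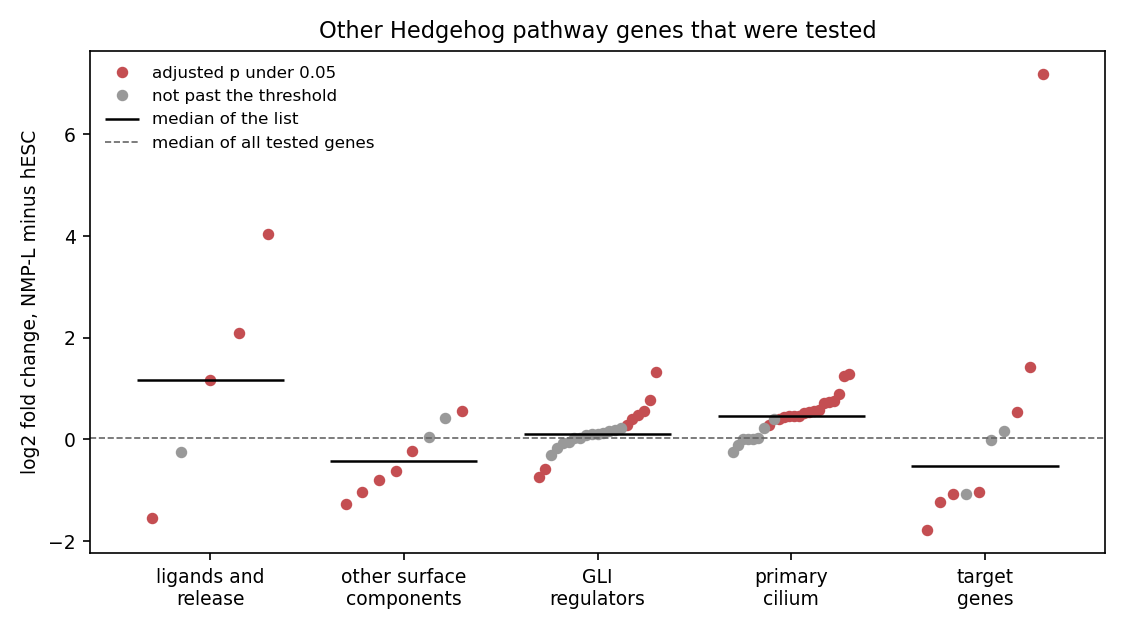
Log2 fold changes (NMP-L minus hESC) of the tested genes of 5 lists, with a point per gene in red where it passed the test, a line at each list's median and a dashed line at the median of all genes. The cilium list holds 16 genes called higher and 0 called lower, whereas the target list holds 3 and 4.

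The genes whose pattern over the 6 libraries was most like that of a member were found as those with the smallest root mean square difference in centred log2 CPM among 15516 genes. For PTCH1 these were FILIP1 (0.0633), LMBR1L (0.0684) and TSPYL5 (0.0696), with correlations of 0.992, 0.991 and 0.988. For GLI3 they were NTAN1 (0.0159), GEMIN5 (0.0246) and TNFRSF21 (0.0288), and for GLI2 TMEM186 (0.0224), BTBD2 (0.0234) and EGLN2 (0.0241). With 6 libraries in 2 conditions these values mainly follow the difference between conditions and describe likeness only.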

How the data were processed

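Polyadenylated RNA of 6 libraries was read from 1 end (76 bp). For each gene the authors deposited expected counts from RSEM, not normalized between libraries, and TPM values scaled by effective transcript length. The submitters' processing notes name cutadapt 1.9.1, STAR 2.5.2a, RSEM 1.3.0, DESeq2 1.12.3 and hg19, without roles. The annotation is not given in the sources used here. Each column was assigned to 1 library, and 0 per-sample columns were left unused.

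Counts were rounded to integers and tested in R 4.3.3 with edgeR 4.0.16 (filterByExpr with a minimum count of 10, TMM scaling, glmQLFit and glmQLFTest for condition), with Benjamini-Hochberg adjustment over all 15517 genes tested. Standard errors were obtained as the absolute log2 fold change over the root of the F value. Exact two-sided permutation tests were run on log2 CPM (pseudocount 0.1) or on shares of TPM. P-values measure the spread between labelled biological replicates, whose separate origin is not described further. A floor of 3 counts corresponds to 0.130 to 0.154 CPM of the library totals before TMM scaling, and the floor used for SHH was computed after it (0.157 CPM). The tests were checked on simulated data.

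Alternatives were RLE size factors, library size only, scaling to GAPDH or HPRT1, DESeq2 1.42.0, limma 3.58.1 with a trend on log2(TPM + 1), other filters, the replicate number as a block and each library left out in turn. Correcting libraries for GC content and length was chosen after seeing the data. Members and gene lists were chosen with earlier results of these data known. Named genes are the members, SHH, IHH, DHH and CDON, and from each list at most the 5 largest changes per direction with an adjusted p under 0.05, a fold of at least 2 and no overlap between conditions, or, where a list had fewer than 2 of these, also its 2 genes with the highest mean CPM. The 3 genes most like PTCH1, GLI2 and GLI3, label-check markers, GAPDH and HPRT1 were named too, and the value of 1 listed gene is not reported here. SCUBE2, the overlapping genes, and the marker, NKX2-2, NKX6-1, NKX6-2, DBX2 and OLIG2 values are not covered by this rule and were picked with their values known. Positions come from GENCODE release 44 on GRCh37 and promoter sequences from RefSeq on GRCh38.p14. Figures were drawn with matplotlib 3.10.9 in Python 3.11.15.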

Additional observations from a re-analysis of the deposited data

How the results depend on the processing

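The calls of GAS1 and HHIP were the same in every alternative in which they were tested (log2 fold changes of 1.79 to 2.74 and of −2.21 to −0.61), and 6 of the 9 members kept theirs outside the scalings to GAPDH and HPRT1. The values 1.79 and −0.61 came from limma on log2(TPM + 1), a scale unlike that of the other fits. Among the other fits, GAS1 was at 1.92 or more and HHIP at −1.30 or lower. With GAPDH, 5 members were called (4 higher, 1 lower), with 18 GLI regulators, and SMO, GLI2 and GLI3 turned to 0.23, 0.34 and 0.0856. With HPRT1, 5 GLI regulators and 5 cilium genes (4 higher, 1 lower) were called, CSNK1A1 turned to −0.17 and SOX2 to −0.24. The correction for GC content and length, chosen after seeing the data, gave 13 GLI regulators (9801 calls over all genes). With the replicate block it also gave 13 (9219 calls over all genes). GLI2 turned to 0.03 in both (0.0325 and 0.0324) and CSNK1A1 to −0.01 (−0.0118 and −0.0136). The cause was not tested. Leaving out 1 library gave 5 to 10 GLI regulators (5 without hESC replicate 2), SOX2 values of −0.0014 to 0.12 and a GLI3 share difference of −1.38 to 0.45 percentage points. Over all genes, 8654 calls became 11456 with GAPDH (10027 higher, 1429 lower) and 7087 with HPRT1 (1793 higher, 5294 lower). With 3 libraries per condition, no exact permutation p can fall under 0.1.

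The labels give both conditions replicate numbers 1 to 3, but deviations of same-numbered libraries correlated at −0.37, −0.06 and −0.13, so the numbers were not taken to pair the samples. With the replicate block, 7560 genes and 7 members were called, and SUFU was the member that lost its call (adjusted p = 0.077).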
